A study of Homo sapiens with 24 samples.

Results

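RBFOX2, ESRP1, ESRP2, RBM47, MBNL1, MBNL2, PTBP1, PTBP2, QKI and CELF1 are 10 RNA-binding proteins that set tissue-type splicing. They were listed together as regulators of this kind and selected on the lower array values of RBFOX2 with the PKCδ shRNA in all 4 cell lines, so that fall is described here without a test. ESRP1 was not analysed here. The other 9 each had 1 transcript cluster (the probe group that stands for a gene), out of 18417 genes measured, and the 8 besides RBFOX2 were tested.

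Alternative splicing joins the exons of a transcript in different combinations. RBFOX proteins bind GCAUG, and the MBNL, PTBP, QKI and CELF proteins bind other short motifs, in or beside exons, and favour inclusion or skipping according to where they bind. ESRP1, ESRP2 and RBM47 promote epithelial exon patterns, as in FGFR2, CD44 and ENAH, while RBFOX2 and QKI are known for mesenchymal patterns that appear during the epithelial-mesenchymal transition, a switch studied in lung carcinoma.

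The cells were 4 human non-small cell lung cancer (NSCLC) lines with mutant K-ras, of which H2009 and H441 depend on K-ras and A549 and H460 do not. Each line, transduced with a lentivirus and selected with puromycin, carried either the scrambled shRNA δscr or δ193, an shRNA against the coding region of PKCδ, and each of these 8 groups had 3 biological replicates. Total RNA was hybridised to gene-level Affymetrix arrays, which give a log2 value per transcript cluster, so that levels of the regulators were measured and the splicing of their targets was not. Only 1 PKCδ shRNA was on the arrays, so an effect of PKCδ depletion and another effect of δ193 cannot be told apart, and the sources used here do not say whether the lines were clones or pools.

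PRKCD, the PKCδ gene, changed on the log2 scale by -1.26 in A549, -2.03 in H460, -2.25 in H2009 and -2.40 in H441, and in each line all δ193 arrays lay below all δscr arrays. How many of all genes had groups without overlap was not counted, so overlap is given here and below only as a description. The array medians lay between 4.78 and 4.91, and arrays of 1 group correlated between 0.9819 and 0.9977. The H441 arrays were more variable, with a median residual variance 2.55 times that of the other lines. The fit shares 1 spread per gene over all lines, so the standard errors given for H441 can be too small. The epithelial keratins KRT8 and KRT18 had group means of 11.2 to 12.5 in all 8 groups, and the mesenchymal filament gene VIM 10.8 to 11.3. EPCAM, an epithelial surface protein, had means of 11.20 and 10.86 in the H2009 groups but 4.71 to 5.89 in the others, and CDH1 (E-cadherin) had 11.23 in H2009 δscr cells, 8.73 in A549, 6.41 in H441 and 5.60 in H460. Of the leukocyte markers, PTPRC, CD3E and ITGAM had group means of 2.66 to 4.63 and CD68, a lysosomal protein of macrophages that other cells also make, 9.23 to 10.70. The endothelial genes PECAM1, CDH5 and VWF had 3.43 to 4.13, and of the fibroblast genes PDGFRA and COL1A2 had 3.12 to 4.82 and COL1A1 6.03 to 6.70. Of these 10 genes PECAM1 alone was called, lower in H441 (-0.51). That call was lost with the clusters of the gene averaged (-0.23) or with H441 fitted on its own 6 arrays (adjusted p = 0.113). H441 is known for surfactant protein B, yet SFTPB had a mean of 4.01 in H441 δscr cells, within its range of 3.80 to 4.22 over the 8 groups, and NKX2-1 had 4.21 against 5.55 in H2009. Those last 2 genes were looked up after values had been seen, and the identity of the line was not tested.

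RBFOX2 stood lower with δ193 in every line. Its array values were 8.13, 8.26 and 8.08 in H2009 δscr cells and 7.26, 7.15 and 7.14 in H2009 δ193 cells. In H441 they were 8.38, 8.21 and 8.12 with δscr and 7.31, 7.23 and 7.06 with δ193. The δ193 level was 50.9% of the δscr level in H2009 and 48.7% in H441. A549 cells had 8.39, 8.20 and 8.29 with δscr and 7.77, 7.80 and 7.69 with δ193, and H460 cells had 8.02, 8.06 and 8.11 with δscr and 7.19, 7.29 and 7.32 with δ193. The remaining level was 68.7% in A549 and 57.6% in H460. No δ193 array reached a δscr array of its line, with a gap between the groups of 0.40 in A549, 0.69 in H460, 0.81 in H441 and 0.81 in H2009. The log2 changes were -0.54, -0.80, -1.04 and -0.97 in that order, with a mean of -0.84. PRKCD also fell least in A549 (-1.26), then in H460 (-2.03), H2009 (-2.25) and H441 (-2.40). K-ras class and depth of depletion therefore cannot be told apart here. In these bulk samples less RNA in every cell and fewer cells with the RNA cannot be told apart. A call here needed limma's adjusted p to be below 0.05 together with a log2 difference of 0.322 or more in either direction, the fold limit of the study, and by that rule 29 genes (0.157%) were lower in all 4 lines, none of them among the 8 regulators tested.

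**Figure D1:**
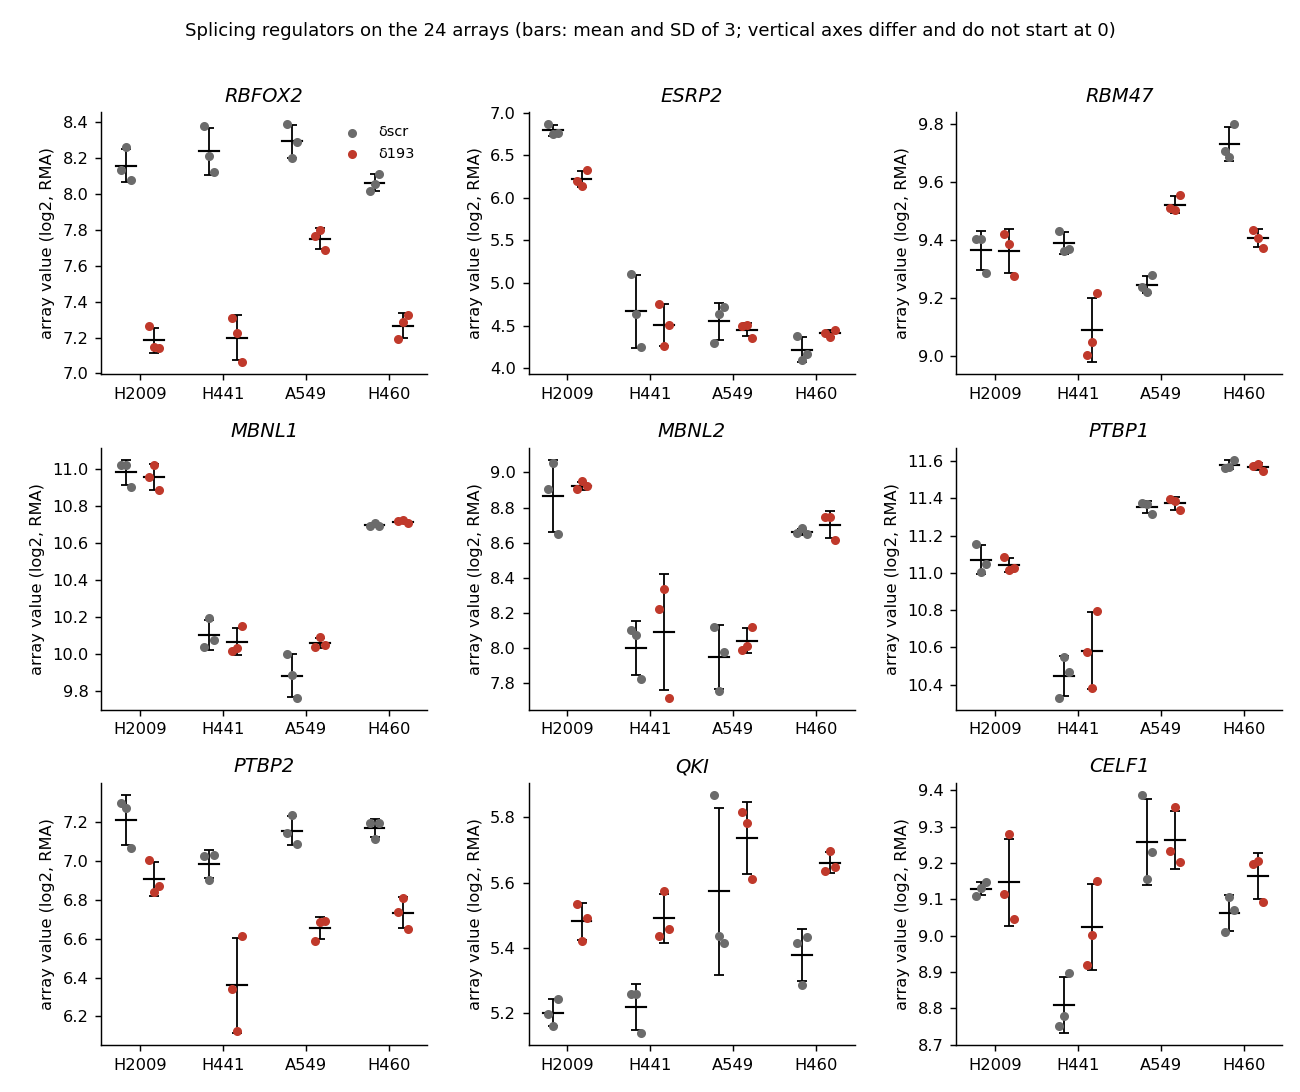
The 9 splicing regulators by cell line (horizontal axis) and log2 array value (vertical axis). Arrays are drawn as points, grey for δscr and red for δ193, black marks give group means and SDs (n = 3), and the vertical axes differ between panels. RBFOX2 and PTBP2 are lower with δ193 in all 4 lines without overlap, while ESRP2 is lower in H2009 and RBM47 moves in different directions. The share of all genes without overlap was not counted.

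PTBP2 was the tested regulator that fell in most lines. It is the neural relative of PTBP1, binds pyrimidine-rich RNA and mostly represses exons. It was the only member called over the mean of the 4 lines, where it changed by -0.47 (standard error 0.05, 95% confidence interval -0.57 to -0.36, adjusted p = 5.29e-07), and 2.14% of all genes were called lower and 1.49% higher there. The 250 bases before its annotated start (RefSeq, GRCh38.p14, chr1:96722388-96722637, plus strand) are shown because this gene was called in 3 lines and over the mean of all 4, with CG dinucleotides in capitals.
PTBP2: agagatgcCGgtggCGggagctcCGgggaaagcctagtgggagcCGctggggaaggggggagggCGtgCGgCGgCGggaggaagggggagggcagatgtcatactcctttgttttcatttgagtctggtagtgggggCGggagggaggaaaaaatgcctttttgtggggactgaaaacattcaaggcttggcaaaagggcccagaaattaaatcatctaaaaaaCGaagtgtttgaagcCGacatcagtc
The window holds 11 CG dinucleotides, which is also the median of 35116 promoter windows of this length, and 55.2% of its bases are G or C against a median of 58.0%. On both strands it has 1 match of the GC box GGGCGG, found in 42.6% of windows, and 0 matches of CCAAT (32.0% of windows) and of TATAAA (10.7%), which share no stretch with it. RBM47, MBNL1, MBNL2, PTBP1 and CELF1 also had a promoter entry, and RBFOX2, ESRP2 and QKI are named only.

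In H441 the array values of PTBP2 were 7.02, 6.90 and 7.03 with δscr and 6.34, 6.12 and 6.61 with δ193. In A549 they were 7.14, 7.24 and 7.09 with δscr and 6.59, 6.69 and 6.69 with δ193. The groups did not overlap, and the changes of -0.62 (standard error 0.10, adjusted p = 0.000116) and -0.50 (adjusted p = 0.0028) were both called. With H441 fitted on its own 6 arrays the call in H441 was lost (adjusted p = 0.0647). By the methods' t-test after Benjamini-Hochberg adjustment PTBP2 was called neither in H441 (adjusted p = 0.226) nor in A549 (adjusted p = 0.0824). H460 had 7.19, 7.11 and 7.19 with δscr and 6.74, 6.81 and 6.65 with δ193, a change of -0.43 (adjusted p = 0.00873). Without H460 δ193 replicate 3 that change was -0.39 with an adjusted p of 0.0595 and was not called. H2009 had 7.30, 7.27 and 7.06 with δscr and 7.0, 6.84 and 6.87 with δ193. Those groups were 0.060 apart, and the change of -0.31 (95% confidence interval -0.51 to -0.10, adjusted p = 0.0823) was not called. Among the alternatives only cyclic loess called that change (-0.33, adjusted p = 0.0359). The change of PTBP2 was not shown to differ among the 4 lines (range 0.32, adjusted p = 0.407) or between the K-ras classes (difference 0.0016, 95% confidence interval -0.21 to 0.21). In each of H2009, H441 and A549 1 of the 8 regulators was called lower, in H460 2 were, and none was called higher. Beside these counts, 7.22% of all genes were called lower and 7.09% higher in H441, against 2.25% lower and 2.66% higher in H2009, 3.44% lower and 2.01% higher in H460, and 2.58% lower and 2.05% higher in A549. The median change of the 8 regulators was -0.015 in H2009, 0.055 in A549 and 0.029 in each of H441 and H460, against medians of 0.0015 to 0.014 over all genes.

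ESRP2, an epithelial splicing factor, was the regulator called in H2009. Its array values there were 6.86, 6.75 and 6.76 with δscr and 6.19, 6.14 and 6.32 with δ193, groups 0.43 apart. The change was -0.57 (standard error 0.15, 95% confidence interval -0.89 to -0.26, adjusted p = 0.0279), a fold of 1.49. H2009 was also the line with the highest ESRP2. H441 had 5.10, 4.64 and 4.25 with δscr and 4.75, 4.26 and 4.50 with δ193, A549 4.30, 4.63 and 4.72 with δscr and 4.50, 4.50 and 4.36 with δ193, and H460 4.38, 4.09 and 4.17 with δscr and 4.41, 4.36 and 4.45 with δ193. In these lines the groups overlapped, the values lay near or below the array medians, and the changes of -0.16, -0.10 and 0.19 were not called, the first of them ranging from -0.36 to 0.061 over the alternatives. The call in H2009 was lost without δscr replicate 1 (-0.54, adjusted p = 0.11), δscr replicate 2 (-0.59, 0.0653), δscr replicate 3 (-0.59, 0.0662), δ193 replicate 1 (-0.56, 0.0836) or δ193 replicate 2 (-0.53, 0.111), and kept without δ193 replicate 3. It was also lost by the methods' t-test after Benjamini-Hochberg adjustment (adjusted p = 0.0539), and kept by limma with the 6 H441 arrays left out (adjusted p = 0.000944). The changes of ESRP2 spanned 0.77 among the lines (adjusted p = 0.0869), and with the 6 H441 arrays left out, a choice made after seeing the data, that difference had an adjusted p of 0.003 and was called.

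Among genes of the epithelial state in H2009, GRHL2, a transcription factor of epithelial cells, changed by -0.58 (adjusted p = 0.000639) and ELF3, another, by -0.93 (adjusted p = 0.000347), while the transcriptional repressor ZEB1 rose by 0.60 (adjusted p = 8.47e-05). CDH1 changed there by -0.29 and EPCAM by -0.34, neither called (adjusted p = 0.639 and 0.136). The fall of ELF3 was not confined to H2009. In H441, where ESRP2 was not called, ELF3 changed by -0.88 (adjusted p = 0.00021) and the keratin KRT19 by -0.55 (adjusted p = 0.0018). CDH1 was also lower there, at a fold of 2.302 (adjusted p = 0.0012), while GRHL2 was not called (-0.18). Fitted on its own 6 arrays, H441 kept none of these 3 calls (adjusted p from 0.0532 to 0.0676). KRT19 was called higher in H460, at a fold of 2.302 (adjusted p = 2.1e-07).

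RBM47, which favours epithelial exon patterns and also takes part in RNA editing, moved in different directions in different lines. H460 arrays had 9.71, 9.69 and 9.80 with δscr and 9.43, 9.41 and 9.37 with δ193. H441 arrays had 9.43, 9.36 and 9.37 with δscr and 9.0, 9.05 and 9.22 with δ193. In both lines every δ193 array was below every δscr array. A549 arrays had 9.24, 9.22 and 9.28 with δscr and 9.51, 9.5 and 9.55 with δ193, with every δ193 array above. H2009 arrays had 9.40, 9.40 and 9.29 with δscr and 9.42, 9.39 and 9.28 with δ193, which overlapped. RBM47 fell by 0.33 in H460 (standard error 0.07, adjusted p = 0.00746), just past the fold limit. The changes of -0.30 in H441 (adjusted p = 0.00618) and 0.28 in A549 (adjusted p = 0.0281) passed the test but were under that fold, and H2009 had -0.0028. The 4 changes spanned 0.60 and differed among the lines (adjusted p = 0.00061), and RBM47 was the only tested regulator of which this was called, beside 14.1% of all genes. With the H441 arrays left out the difference had an adjusted p of 0.00042. The H460 call was lost without δscr replicate 3 (-0.29, adjusted p = 0.0567) or δ193 replicate 3 (-0.31, adjusted p = 0.0446, under the fold). It was also lost, under the fold, with quantile normalization (-0.29) and cyclic loess (-0.28). RBM47 was instead called in H441 under cyclic loess (-0.34, adjusted p = 0.000819) and without H441 δ193 replicate 3 (-0.36, adjusted p = 0.00104).

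**Figure D2:**
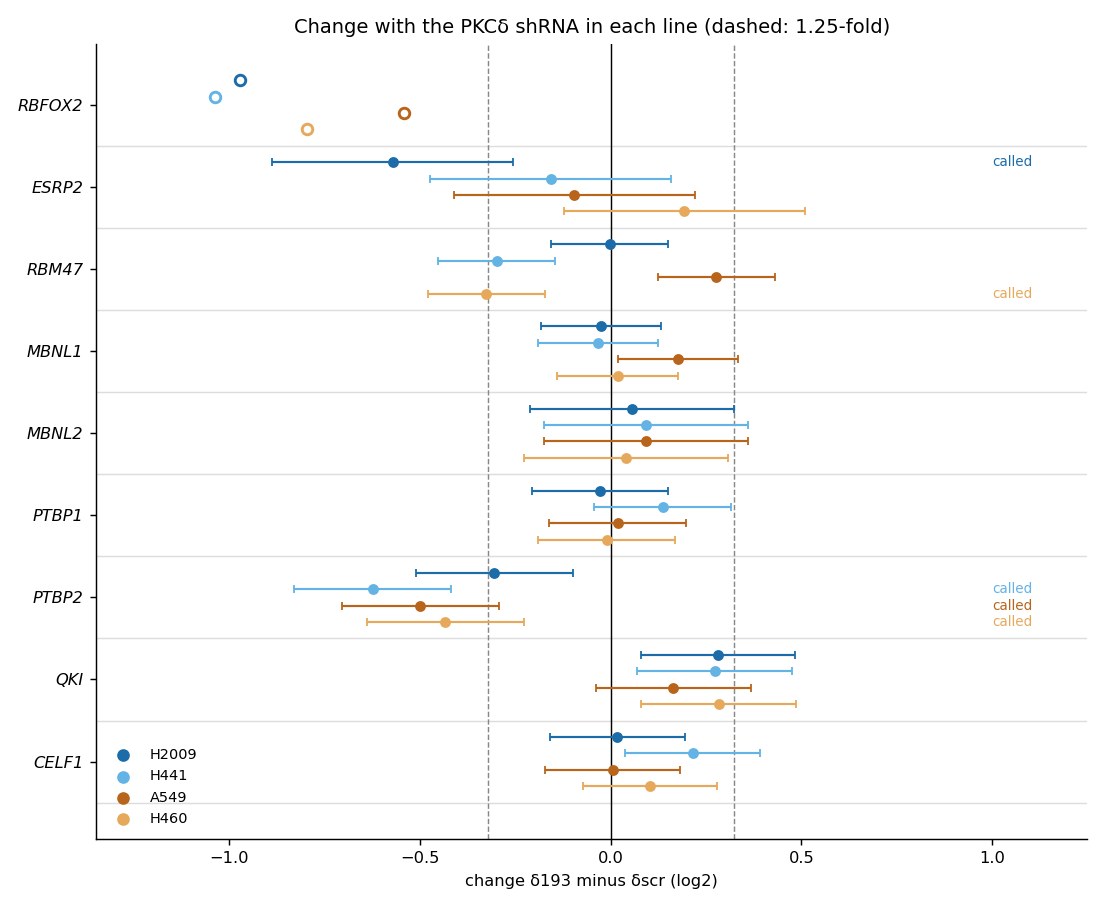
Change with the PKCδ shRNA (δ193 minus δscr, log2) of the 9 splicing regulators in the 4 lines. Filled points carry the 95% confidence interval from limma, open points of RBFOX2 have none because its fall chose the list, dashed lines mark the fold limit of 0.322, and the word called marks the 5 changes past both thresholds. The 4 intervals of PTBP2 lie below 0, and those of RBM47 lie on both sides of it.

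QKI, a STAR-family protein that binds ACUAA motifs, stood slightly higher with δ193 without reaching the fold. Its array values were 5.20, 5.16 and 5.24 with δscr and 5.53, 5.42 and 5.49 with δ193 in H2009. In H441 they were 5.26, 5.26 and 5.14 with δscr and 5.44, 5.57 and 5.46 with δ193. In H460 they were 5.41, 5.28 and 5.43 with δscr and 5.63, 5.70 and 5.65 with δ193. In these 3 lines the groups did not overlap. A549 had 5.87, 5.44 and 5.41 with δscr and 5.82, 5.78 and 5.61 with δ193, which overlapped because of δscr replicate 1. The changes were 0.28, 0.27, 0.28 and, in A549, 0.16, with adjusted p of 0.109, 0.0601, 0.104 and 0.495. Over the 4 lines the mean change was 0.25 (standard error 0.05, 95% confidence interval 0.15 to 0.35, adjusted p = 0.000867), which passed the test at a fold of 1.19.

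MBNL1, MBNL2, PTBP1 and CELF1 were called in no line by limma, and the intervals limit what their changes could be. MBNL1 and MBNL2, which bind YGCY motifs and are sequestered by CUG repeats in myotonic dystrophy, changed by -0.035 to 0.18 and by 0.041 to 0.093. The 95% confidence intervals of the 4 changes of MBNL1 ran from -0.19 to 0.33 and those of MBNL2 from -0.23 to 0.36. PTBP1, the broadly expressed repressor of exons, changed by -0.028 to 0.14, with intervals from -0.21 to 0.32. CELF1, an antagonist of MBNL proteins, changed by 0.005 to 0.21, with intervals from -0.17 to 0.39. At an unadjusted p under 0.05 limma gave MBNL1 in A549 (adjusted p = 0.243) and CELF1 in H441 (adjusted p = 0.0909). The δ193 arrays lay above the δscr arrays in those 2 cases by 0.041 and 0.022, and the other 14 group pairs of these genes overlapped.

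Between the K-ras classes, that is H2009 and H441 against A549 and H460, the change of none of the 8 regulators differed by the call rule, beside 4.65% of all genes. At an unadjusted p under 0.05 ESRP2 was the single case, with a class difference of -0.41 (adjusted p = 0.135). Without H441 δscr replicate 3 the difference was -0.52 (adjusted p = 0.0247) and was called. PRKCD itself had a class difference of -0.68 (adjusted p = 0.0516), not called.

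For ESRP2, MBNL1, MBNL2, PTBP1, QKI and CELF1 the levels in δscr cells spanned a wider range over the lines than the changes did, and for RBM47 (0.49 against 0.60) and PTBP2 (0.23 against 0.32) a narrower one. By an F test among the 4 lines 7 of the 8 regulators differed, all but PTBP2, beside 71.7% of all genes. ESRP2 had group means of 4.21 ± 0.15 (SD, n = 3) in H460, 4.55 ± 0.22 in A549, 4.66 ± 0.42 in H441 and 6.79 ± 0.06 in H2009. H2009 stood above the next line by 2.13 (adjusted p = 3.04e-11), a fold of 4.36. H441 and A549 were not shown to differ (0.12, 95% confidence interval -0.20 to 0.43), and neither were A549 and H460 (0.33, adjusted p = 0.0811), although that pair was called without A549 δscr replicate 1 (0.46, adjusted p = 0.0278) or without H441 δscr replicate 1 or 3. The call of H441 over H460 (0.45, adjusted p = 0.0169) was lost without H441 δscr replicate 1 (0.23), H460 δscr replicate 2 (0.39) or H460 δscr replicate 3 (0.43), and under quantile normalization (0.35) and cyclic loess (0.33).

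MBNL1 and MBNL2 shared an order, with H2009 and H460 above H441 and A549. MBNL1 had 10.98 ± 0.07 in H2009, 10.70 ± 0.01 in H460, 10.10 ± 0.08 in H441 and 9.88 ± 0.12 in A549. Its neighbours H2009 and H460 differed by 0.28 (adjusted p = 0.00373) and H441 and A549 by 0.22 (adjusted p = 0.0178), both under the fold, and H441 lay 0.60 under H460 (adjusted p = 5.34e-07). MBNL2 had 8.87 ± 0.21 in H2009, 8.66 ± 0.02 in H460, 8.0 ± 0.15 in H441 and 7.95 ± 0.18 in A549. H460 lay above H441 by 0.66 (adjusted p = 0.000145), while H2009 and H460 (0.21, adjusted p = 0.237) and H441 and A549 (0.048, adjusted p = 0.781) were not shown to differ. Over the 24 arrays MBNL1 and MBNL2 correlated with r = 0.932, and with the mean of each line subtracted r was 0.089, as descriptions over arrays that share lines. Under cyclic loess MBNL1 in H441 lay 0.27 under H460 and was no longer called. Quantile normalization and cyclic loess instead called MBNL1 in H2009 over H460 (0.34 and 0.36) and in H441 over A549 (0.40 and 0.46).

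PTBP1 stood, from low to high, in the order H441, H2009, A549 and H460, with means of 10.45 ± 0.11, 11.07 ± 0.08, 11.35 ± 0.03 and 11.58 ± 0.02. H441 lay 0.62 under H2009 (adjusted p = 1.49e-06) and 1.13 under H460 (adjusted p = 2.05e-10). H2009 against A549 (-0.28, adjusted p = 0.00917) and A549 against H460 (-0.23, adjusted p = 0.0377) were under the fold. PTBP2 had 6.98 ± 0.07 in H441, 7.15 ± 0.07 in A549, 7.17 ± 0.05 in H460 and 7.21 ± 0.13 in H2009, and no pair of lines was called.

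RBM47 was highest in H460, at 9.73 ± 0.06, against 9.39 ± 0.04 in H441, 9.36 ± 0.07 in H2009 and 9.25 ± 0.03 in A549. H460 lay above A549 by 0.49 (adjusted p = 7.64e-06), and the other 3 lines were not shown to differ from each other. The call of H460 over H441 was lost without H460 δscr replicate 3, where H441 minus H460 was -0.31 in place of -0.34, with array medians set equal (-0.32), and after quantile normalization (-0.15) or cyclic loess (-0.044). CELF1 had 8.81 ± 0.08 in H441, 9.06 ± 0.05 in H460, 9.13 ± 0.02 in H2009 and 9.26 ± 0.12 in A549. Its single call, H441 under A549 by 0.45 (adjusted p = 9.11e-05), was lost under quantile normalization and cyclic loess, and the difference between H441 and H460 turned from -0.25 to 0.037 under cyclic loess. QKI had 5.20 ± 0.04 in H2009, 5.22 ± 0.07 in H441, 5.38 ± 0.08 in H460 and 5.57 ± 0.26 in A549. Its calls of A549 over H2009 and H441 rested on A549 δscr replicate 1, without which the values of H2009 and H441 minus A549 were -0.22 and -0.21 and neither was called. The call against H441 was also lost without H441 δscr replicate 3 (-0.31). RBFOX2 itself ranged only from 8.06 ± 0.05 in H460 and 8.16 ± 0.09 in H2009 to 8.24 ± 0.13 in H441 and 8.29 ± 0.09 in A549, as a description.

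Of the 48 member and line pairs 22 were called. Those were 4 of 8 members between H2009 and H441 (all genes 49.3%), 4 between H2009 and A549 (41.4%), 3 between H2009 and H460 (35.5%), 3 between H441 and A549 (48.4%), 5 between H441 and H460 (45.4%) and 3 between A549 and H460 (38.9%). Between the K-ras classes ESRP2 was higher in the dependent lines by 1.35 (adjusted p = 3.12e-10) and PTBP1 lower by 0.71 (adjusted p = 1.14e-09), 2 of 8 members beside 33.8% of all genes. MBNL1 was higher there by 0.25 (adjusted p = 0.000376), under the fold. It was called under quantile normalization (0.37, adjusted p = 1.62e-06) and cyclic loess (0.41, adjusted p = 4.41e-07). Yet MBNL1 in the dependent line H441 minus the independent line H460 was -0.60 (adjusted p = 5.34e-07). QKI (-0.27, adjusted p = 0.00255) and CELF1 (-0.19, adjusted p = 0.0109) were lower in the dependent lines, also under the fold. H2009 stood above A549 by 2.24 and above H460 by 2.58 in ESRP2, while H441 stood above H460 by 0.45 and was not shown to differ from A549, and with 2 lines a class the contrast is about these lines.

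**Figure D3:**
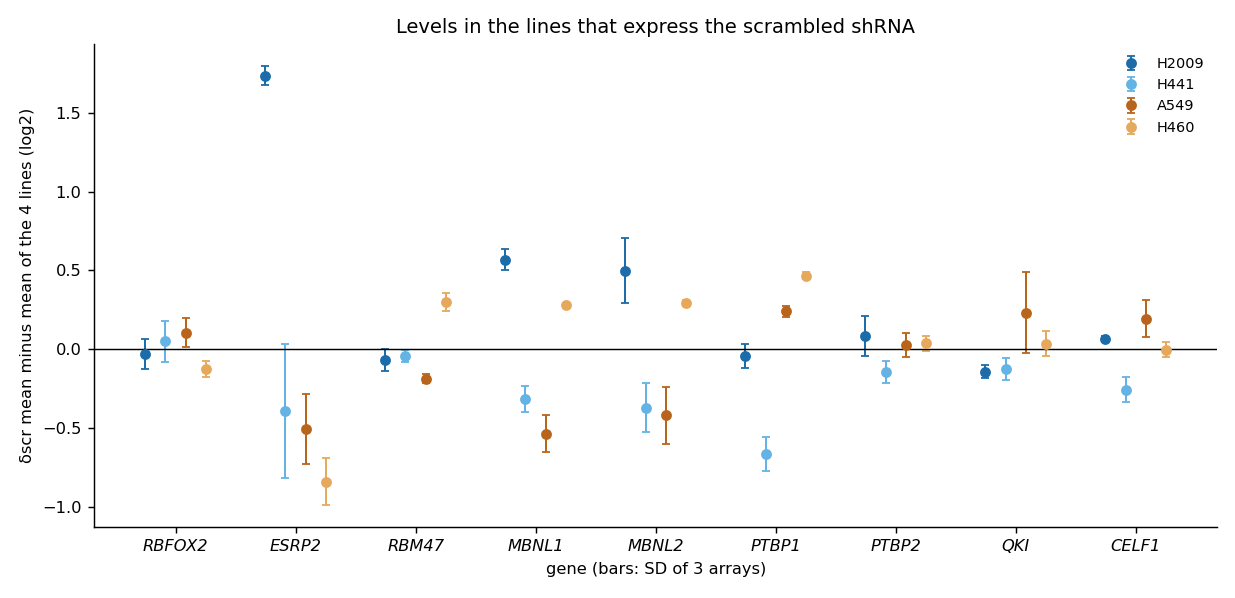
Levels of the 9 splicing regulators in cells that express the scrambled shRNA. Each point is the δscr mean of a line minus the mean of the 4 lines, on the log2 scale, and the bars are the SD of 3 arrays. ESRP2 in H2009 stands apart at 1.74, and MBNL1 and MBNL2 place H2009 and H460 above 0 and H441 and A549 below.

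Of the 10 paralogs listed, all measured, MBNL3 and PTBP3 were each called in 1 line, and none was called in H2009 or H441. MBNL3, the third muscleblind gene, fell by 0.85 in H460 (standard error 0.14, adjusted p = 0.000304), from 7.57 ± 0.03 to 6.72 ± 0.09, and changed by 0.38 in H2009 and 0.30 in A549, not called, with the δ193 arrays above the δscr arrays in both. The change in H2009 was called without H441 δ193 replicate 2 (adjusted p = 0.0236), with the 6 H441 arrays left out (adjusted p = 0.00399) and when H2009 was fitted alone (adjusted p = 0.0366). PTBP3 fell by 0.35 in A549 (adjusted p = 0.00547), a call that was lost without A549 δscr replicate 1 (-0.31), and its δ193 arrays lay below the δscr arrays in H2009 too and above them in H441 and H460. The changes differed among the lines for MBNL3 (range 1.23, adjusted p = 0.000307) and PTBP3 (range 0.52, adjusted p = 0.00293). In δscr cells MBNL3 had 3.83 ± 0.14 in A549, which was 3.74 under H460 and 2.48 under H2009. RBFOX1 and RBFOX3, the other RBFOX genes, changed by at most 0.33, with no call, and the group means of RBFOX1 lay between 2.92 and 3.15. RBFOX3 was called higher in H441 without H441 δscr replicate 3 (0.36 in place of 0.18, adjusted p = 0.0285), and its 0.33 in H460 was called without that array (adjusted p = 0.0424) or with the 6 H441 arrays left out (adjusted p = 0.0266).

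The wider splicing machinery was compared by counts beside all genes. Of 23 SR proteins and their kinases, which mark exons for splicing, CLK2 was lower (-0.35) and SRSF7 higher (0.32) in H441 and none was called elsewhere. Of 25 hnRNP and poly(C)-binding proteins, PCBP3 was higher in H2009 (0.47) and H460 (0.43) and RALY in H441 (0.33). Without 1 array of the line the call was kept for CLK2. It was lost for SRSF7 without H441 δscr replicate 1 (0.31) or δ193 replicate 3 (0.22), and for RALY without H441 δscr replicate 1 (0.32), δ193 replicate 1 (0.32) or δ193 replicate 3 (0.31). It was lost for PCBP3 without H2009 δ193 replicate 1 (0.38), and in H460 without δscr replicate 3 (0.39) or δ193 replicate 2 (0.38). Of 38 core spliceosome genes 9 were higher in H441, among them SNRPA (0.47), SNRPF (0.43) and PRPF3 (0.42), which was 23.7% of the list beside 7.09% of all genes, with a median change of 0.13 against 0.0015. That count was 2 without H441 δ193 replicate 3 and 12 without H441 δ193 replicate 2. With H441 fitted on its own 6 arrays, SNRPA, SNRPF, PRPF3, CLK2, SRSF7 and RALY were not called (adjusted p from 0.0805 to 0.293). In the other lines PRPF6 in A549 (0.47, adjusted p = 0.00191) was the only core gene called.

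Of 20 other tissue-type regulators, 3 were called higher in each of A549, H441 and H2009 and 1 in H460, and 2 were called lower in H441 and 1 in each of the other lines. Those are 20% of the list in H2009 beside 4.91% of all genes, 25% in H441 beside 14.3%, 20% in A549 beside 4.63% and 10% in H460 beside 5.45%. The higher genes in H441 were TIA1, TIAL1 and RBM10, which were called in no other line. A1CF, the RNA-binding partner of the APOBEC1 editing enzyme, rose by 2.06 in A549 (standard error 0.10, adjusted p = 1.4e-12), from 5.09 ± 0.06 to 7.15 ± 0.24, and had means of 3.65 to 3.90 in the other lines. NOVA1, a neuronal splicing factor, rose by 0.94 in A549 (adjusted p = 1.74e-05) and fell by 0.53 in H441 (adjusted p = 0.0029). With H441 fitted on its own 6 arrays that fall was not called (adjusted p = 0.154). RBM24, a muscle splicing factor, rose by 0.81 in H2009 and 0.79 in H460 and fell by 0.86 in A549 (largest adjusted p = 0.00192). RBMS3 rose by 0.69 in H2009 (adjusted p = 0.00182). Its change of -0.44 in H460 (adjusted p = 0.0449) was lost without any of the 6 H460 arrays in turn, at changes of -0.50 to -0.40. Other counts of 1 to 3 in this list also moved by 1 or 2 when 1 array was left out.

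Genes with exons that ESRP or RBFOX2 regulates were counted by their total level, which says nothing of their exons. Of the 26 measured, 1 was lower and 1 higher in H2009, 6 and 1 in H441, none in A549, and 3 and 1 in H460. Those are 7.69% in H2009 beside 4.91% of all genes, 26.9% in H441 beside 14.3% and 15.4% in H460 beside 5.45%, and the median change was -0.14 in H441 and -0.028 to 0.0077 in the other lines. MAP3K7, the kinase TAK1, fell by 0.57 in H441 (adjusted p = 0.000458) and by 0.39 in H460 (adjusted p = 0.0226), and its call in H2009 (-0.36, adjusted p = 0.0418) was lost without any of the 6 H2009 arrays in turn, at changes of -0.40 to -0.32. The H460 call was lost without H460 δscr replicate 2 (-0.38) or 3 (-0.39) or δ193 replicate 1 (-0.36) or 3 (-0.36). RALGPS2, a Ral exchange factor, fell by 0.57 in H441 and by 0.74 in H460. With H441 fitted on its own 6 arrays neither MAP3K7 (adjusted p = 0.101) nor RALGPS2 (adjusted p = 0.0984) was called there. NF2, the tumor suppressor merlin, rose by 0.67 in H460 (adjusted p = 0.00953), a call that held without each H460 array, while those of 0.58 in H2009 (adjusted p = 0.0319) and 0.46 in H441 (adjusted p = 0.0482) were lost without any array of their line but δ193 replicate 3 in H2009 (0.53 to 0.61) and δ193 replicate 2 in H441 (0.35 to 0.46). FN1, which holds alternatively spliced fibronectin exons, fell by 1.27 in H441 (adjusted p = 0.000571). Without A549 δscr replicate 1, FN1 was called higher in A549 (0.99, adjusted p = 5.64e-06) and so was NF2 (0.52, adjusted p = 0.00749).

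Of 14 epithelial genes 3 were lower in H2009, 3 lower in H441, 1 higher in A549 and 2 higher in H460, so that 21.4% were called in H2009 beside 4.91% of all genes, 21.4% in H441 beside 14.3%, 7.14% in A549 beside 4.63% and 14.3% in H460 beside 5.45%. With 1 array left out the count was 5 in H441 (δ193 replicate 1 or 2), and 1 in H460 without any of its arrays but δscr replicate 2. Of 13 mesenchymal genes 1 was higher in H2009, 5 were lower and 3 higher in H441, 1 was higher in A549, and 3 were lower and 2 higher in H460. Beside the shares of all genes just given, 7.69% of this list was called in H2009 and in A549, 61.5% in H441 and 38.5% in H460. FN1, MMP2, FBN1 and SNAI2 were not called in H441 by the methods' t-test after Benjamini-Hochberg adjustment (adjusted p from 0.11 to 0.371). FN1 is also in the list of genes with exons that ESRP or RBFOX2 regulates. The 3 lower calls in H460 became 0 without any 1 of the 6 H460 arrays.

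**Figure D4:**
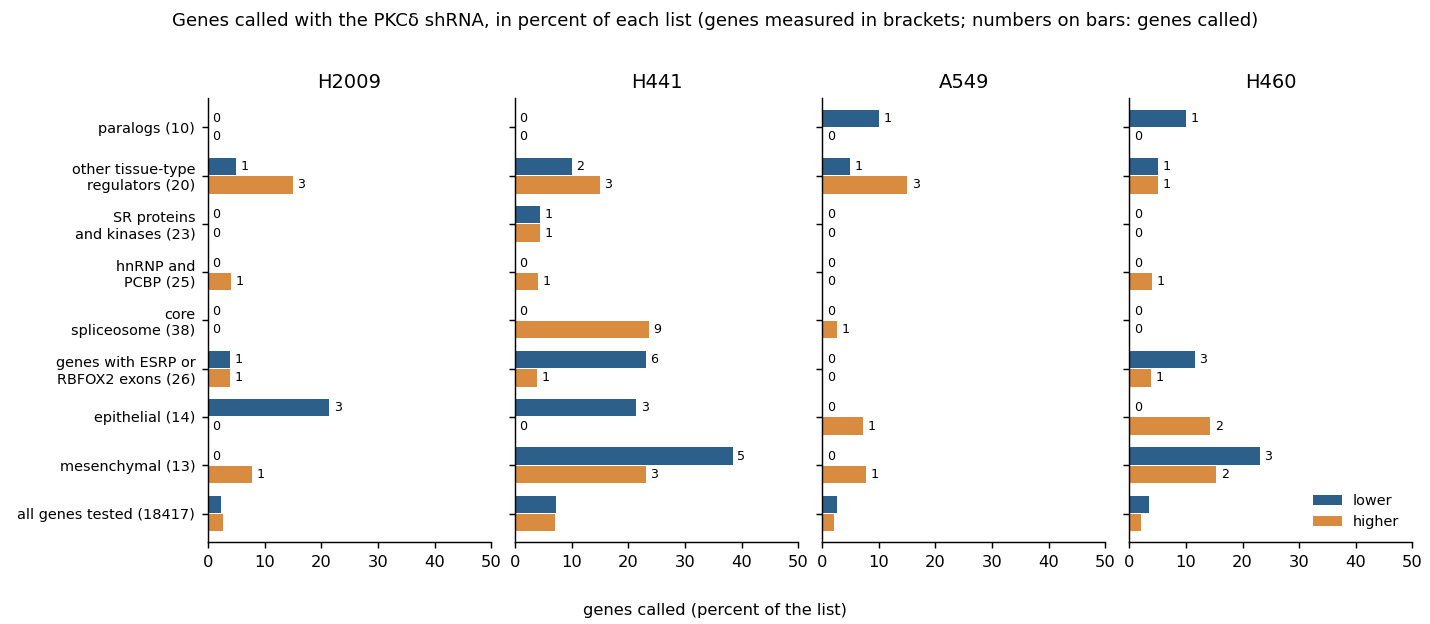
Genes called lower (blue) and higher (orange) with δ193 in each line, as a percent of each list on the horizontal axis, with the number of genes measured in brackets and the number called on each bar. The bottom bars give all 18417 genes tested. In H441 the mesenchymal genes have the highest share called (61.5%, 5 lower and 3 higher). The core spliceosome has 9 higher there, a count that fell to 2 without 1 array.

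The genes whose array values were most like those of RBFOX2 are given as a description, since the arrays share lines and shRNAs. Over the 24 arrays these were TERF2IP, the telomere protein RAP1 (r = 0.924), TMEM245 (0.853), the semaphorin receptor NRP2 (0.838), the ubiquitin ligase RNF185 (0.835) and PNPLA6 (0.834). With the mean of each line subtracted they were AMIGO2 (0.977), the endosomal sorting protein SNX27 (0.974), the mRNA export factor FYTTD1 (0.967), SMAD5 (0.967) and TERF2IP (0.960). TERF2IP stood lower with δ193 by 0.77 in A549, 0.92 in H460, 0.90 in H441 and 0.97 in H2009, a more even set than that of RBFOX2. Among the regulators PTBP2 was most like RBFOX2, with r = 0.699 over 24 arrays and 0.859 with line means subtracted, and QKI most unlike it, with -0.389 and -0.752. RBM47 was most like the motor protein KIF13A (0.825), SCARNA16 (0.820), ZSWIM5 (0.815), MGST3 (0.799) and JADE2 (0.797). KIF13A changed by 0.30 in A549, -0.35 in H460 and -0.60 in H441, the directions that RBM47 had. As KIF13A was picked for its likeness to RBM47 on these arrays, the shared directions add no support.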

How the data were processed

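Per the labels and the methods, total RNA of 24 samples was hybridised to Human Gene 1.0 ST arrays, and the deposited log2 values were made by the authors with RMA, which corrects background, makes the arrays' distributions alike and summarises probes per transcript cluster. Of 33252 clusters, 19460 had 1 gene symbol, 1754 several and 12038 none, and the cluster with the highest mean over 24 arrays stood for each of 18417 genes. Symbols came from the platform annotation and 19429 were updated by Entrez ID. With 1 coefficient for each of 8 groups, limma 3.58.1 (R 4.3.3) tested δ193 against δscr per line, their mean, the K-ras classes and the δscr lines, with Benjamini-Hochberg adjustment over all genes. The fit was checked on simulated data with 1 spread per gene in all groups, so that check does not cover the wider spread in H441. The number of arrays limits the precision.

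The members and lists were chosen with earlier results of these data known. The design named 9 regulators besides RBFOX2, of which 8 were measured. Genes of the lists were named where called, and the 5 most alike by Pearson's r. Alternatives changed the spread, scaling, gene filter, cluster choice, fold threshold, arrays, block and the methods' t-test.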

Additional observations from a re-analysis of the deposited data

Results flagged for a closer look

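The knock-down change of RBM47 differed among the 4 lines by an F test in limma across all genes. The range of its changes was 0.603 on the log2 scale (adjusted p = 0.00061), from -0.33 in H460 to 0.28 in A549. In A549 all δ193 arrays lay above the δscr arrays, in H441 and H460 all lay below, and in H2009 they overlapped.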

How the results depend on the processing

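No called value changed sign under the alternatives run, but values near 0 that were not called did, as did CELF1 in H441 minus H460 at baseline (-0.25, and 0.037 under cyclic loess). The replicate numbers were not shown to pair the samples. Same-numbered arrays correlated between -0.0854 and 0.284 in their deviations. All these correlations were positive in H2009 (0.284, 0.16 and 0.0955) and H441 (0.0676, 0.0116 and 0.0984), and the signs were mixed in A549 and H460. The replicate block was shared by all lines, so pairing within a line was not tested. With that block the counts of called regulators were still 1 in H2009, 1 in H441, 1 in A549, 2 in H460 and 22 of the baseline pairs. Cyclic loess gave 2 called regulators in H2009, 2 in H441 and 1 in H460, and quantile normalization 1 in H460. The calls gained were PTBP2 in H2009 and RBM47 in H441, and the call lost was RBM47 in H460. Both scalings also called MBNL1 between the K-ras classes at baseline. Keeping the upper part of the genes by mean level gave 0 in H2009 and 1 between the K-ras classes at baseline, because ESRP2 was no longer among the genes tested. Without a fold threshold 2 were called in H441, 2 in A549, 2 over the mean of the 4 lines and 5 between the classes at baseline. Fitting each line on its own 6 arrays gave 0 in H441, and the methods' t-test after Benjamini-Hochberg adjustment 0 in H2009, 0 in H441 and 0 in A549. With the 6 H441 arrays left out, chosen after seeing the data, 2 regulators differed in their change among the lines. Where no construction of the alternative shows it, the cause was not tested.

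Leaving out each array in turn gave 0 to 1 called regulators in H2009, 1 to 2 in H441, 1 in A549, 0 to 2 in H460, 1 over the mean, 0 to 1 between the classes, 1 to 2 among the lines, 6 to 7 among the lines at baseline, 20 to 24 baseline pairs and 2 between the classes at baseline. H460 reached 0 without H460 δ193 replicate 3, H441 2 without H441 δ193 replicate 3, and the difference between classes 1 without H441 δscr replicate 3. The change of RBFOX2 ran from -1.01 to -0.92 in H2009, -1.10 to -0.97 in H441, -0.59 to -0.49 in A549 and -0.82 to -0.76 in H460. Of the values of single regulators under all alternatives 3361 stayed on their side of the call rule, called or not, 30 gained a call and 31 lost one. For the other named genes these counts were 4782, 30 and 141. Many of these values come from fits without an array of another line, which leave a within-line change the same. Low array values, such as those of ESRP2 outside H2009, lie near background, where RMA compresses differences.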
